A study of Mus musculus with 18 samples.

Results

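Alginate oligosaccharide (AOS), short sugar chains cut from the alginate of brown algae, was given at 10 mg/kg to ICR mice, an outbred strain, and testis RNA was sequenced at 10 weeks of age. The comparison set the 3 testis libraries labelled AOS, with no streptozotocin, against the 3 labelled control, over the 20985 genes of the table. These 6 libraries of 18 were chosen by their labels alone. The other 12 libraries, in 4 groups of 3, had streptozotocin (STZ, toxic to pancreatic beta cells) with AOS, with faecal microbiota transplants labelled for AOS or for control, or with no other agent. They entered the shared estimate of spread and are quoted beside some genes. The labels give neither the route and length of dosing nor what control mice received, and do not say whether each library is from its own mouse. The p-values therefore describe the spread between libraries, which may be technical.

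Spermatogenesis takes place in the seminiferous tubules, where spermatogonia, meiotic spermatocytes and spermatids develop in contact with Sertoli cells, whose junctions form the blood-testis barrier. In late spermatids transition proteins and then protamines replace histones, and sperm DNA becomes tightly packed. Between the tubules, Leydig cells turn cholesterol, taken up or made in the cell, into testosterone.

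All 6 libraries carried high levels of testis-defining genes: Prm1 of spermatids lay between 11650 and 15864 FPKM (fragments per kilobase, scaled to library depth), Clu of Sertoli cells between 451 and 517 FPKM and Insl3 of Leydig cells between 2119 and 3345 FPKM. Their summed values ranged from 588160 to 622169 FPKM. Their depth relative to the average library was not measured but inferred from the steps between low values of 116 genes. It ranged from 1.001 to 1.014. Pearson correlations of log2 values were 0.9938 to 0.9946 between AOS libraries, 0.9908 to 0.994 between control libraries and 0.9892 to 0.9943 across the groups. Control replicate 3 stood apart on the first principal component of the 6 libraries (22.9, against −10.9 to 2 for the others; 33.6% of variance). That library held RNA of epididymal genes: Crisp1 was at 159 FPKM there, at 0.05, 0.1 and 0.05 FPKM in AOS libraries, and at 2.71 and 0.15 FPKM in the other control libraries. Counts of several gene lists are therefore also given without control replicate 3.

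No gene passed the test between AOS and control testis. At a Benjamini-Hochberg adjusted p under 0.05 in limma, 0 of 14164 tested genes were called (0%), and the smallest adjusted p was 0.41. At an unadjusted p under 0.05, 553 genes were higher in AOS (3.9%) and 720 were lower (5.08%). That split depended on scaling: it was 776 higher and 332 lower after median centring of the libraries, 610 and 542 after quantile normalization, and 519 and 358 after the length correction described further on. The 3 AOS libraries lay above all 3 control libraries in 1084 genes (7.65%) and below them in 2080 genes (14.7%). Without control replicate 3, with 3 libraries against 2, these shares were 12.5% and 20.7%.

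On the scale used, differences were small across the transcriptome. The median log2 difference, AOS minus control on log2(FPKM + 1), was −0.03, with 5th and 95th percentiles of −0.23 and 0.22. For 13811 genes (97.5%) the 95% confidence interval of the difference lay within 1 log2 unit of 0. The added 1 shrinks differences of genes near 1 FPKM, so this limit is looser for them. With 0.1 added in its place the count was 13276. In all, 43 genes had an estimated difference of at least 1 log2 unit, 12 higher and 31 lower in AOS, and in 13 of these the libraries of the groups did not overlap.

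The leading genes, by p or by size, were chosen among those at a mean of 1 FPKM or more whose groups did not overlap. Their separation was thus fixed by the choice. Among them the smallest p was that of Hoxa3, a homeobox transcription factor gene on chromosome 6 (52169062 to 52213336, GRCm38). It was at 6.3, 6.11 and 5.56 FPKM in AOS libraries and at 3.66, 4.16 and 3.7 FPKM in control libraries. The log2 difference of Hoxa3 was 0.53 (SE 0.1, limma adjusted p = 0.41). Ghrl, which encodes the precursor of the hormone ghrelin and lies on the same chromosome (113716119 to 113719880), was at 93.6, 86.2 and 106 FPKM in AOS libraries and at 67.9, 58.8 and 61.7 FPKM in control libraries. Its log2 difference was 0.59 (SE 0.12, limma adjusted p = 0.41). The difference ranged from 0.51 to 0.66 when each library was left out in turn.

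The other 8 of the 10 genes with the smallest p and a higher level in AOS had smaller differences, but for 1. Tubb2a, a beta-tubulin gene, was at 10.8, 10.6 and 10.4 FPKM in AOS libraries and at 8.24, 8.72 and 8.32 FPKM in control libraries. Snrpd2, a core protein of the splicing machinery, was at 181, 187 and 194 FPKM in AOS libraries and at 145, 132 and 155 FPKM in control libraries. Ndufaf3, an assembly factor of respiratory complex I, was at 155, 161 and 161 FPKM against 140, 132 and 135 FPKM in control. The log2 differences of these 3 genes were 0.3, 0.38 and 0.23. Npm3, of the nucleoplasmin family of histone chaperones (0.27), Ankrd60 (0.31), Tmem89 (0.26), Gm26650 (0.38) and LOC666331 (1.01) completed the 10.

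Of the genes lower in AOS, chosen by the same rule, 2700049A03Rik had the smallest p. It was at 30.6, 28.3 and 31.99 FPKM in AOS libraries and at 38.9, 44.8 and 40.4 FPKM in control libraries, a log2 difference of −0.44 (SE 0.1). Epc2, a relative of enhancer of polycomb, was at 10.3, 11.04 and 10.1 FPKM in AOS libraries and at 12.8, 12.2 and 13.2 FPKM in control libraries. The log2 difference of Epc2 was −0.26 (SE 0.06). The next were Fastkd2, a mitochondrial RNA-binding protein gene (−0.33), the GTPase-activating protein gene Arhgap5 (−0.26), the autophagy receptor gene Tax1bp1 (−0.2), the helicase gene Ascc3 (−0.24) and the stress granule gene G3bp2 (−0.2). Inpp5a, an inositol polyphosphate phosphatase gene (−0.18), Uap1l1 (−0.35) and Gm3650 (−0.58) followed. None of these 10 reached a difference of 1 log2 unit.

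**Figure D1:**
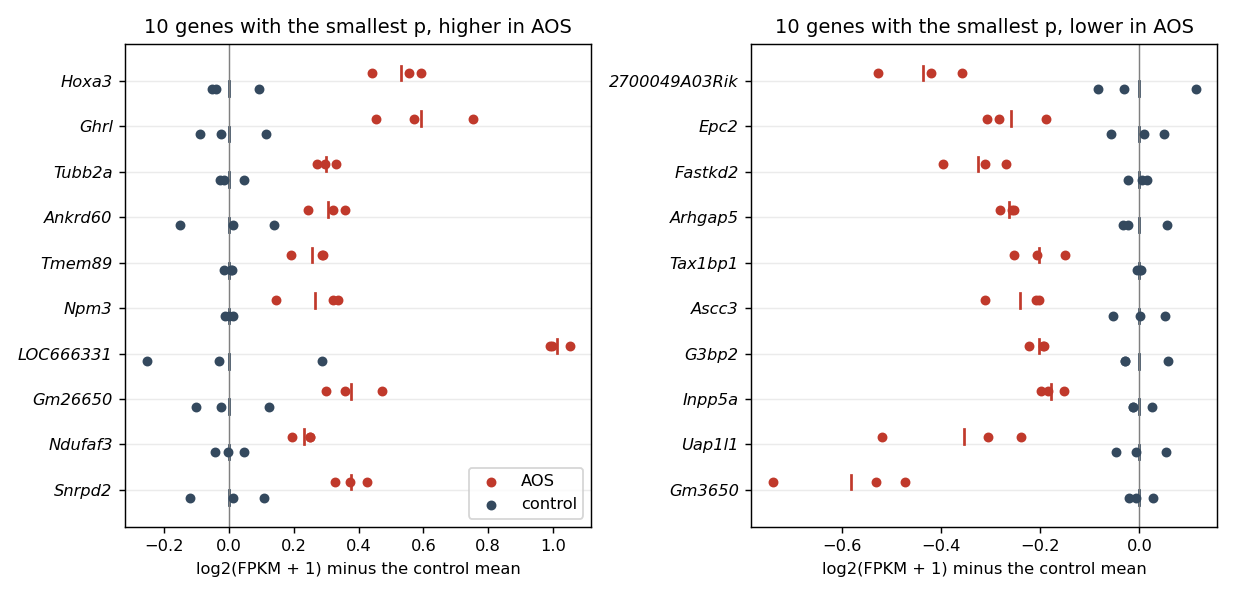
Level of the 10 genes with the smallest p in each direction, as log2(FPKM + 1) minus the mean of the control libraries. Points are libraries (3 AOS in red, 3 control in dark blue), vertical ticks are group means; the groups do not overlap in any of the 20 genes, which were chosen for that, and LOC666331 has the widest gap at a log2 difference of 1.01.

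The largest differences were mostly in genes that varied within a group. Gm10487, on the X chromosome, was at 50.3, 96.6 and 124 FPKM in AOS libraries and at 1.98, 46.5 and 27.7 FPKM in control libraries. Its log2 difference was 2.42 with an SE of 1.37, and 1.21 without control replicate 1. Btbd35f3 (0.98) and Btbd35f29 (−1.51), 2 X-linked genes of one multicopy family, differed in opposite directions. Gm3685 on chromosome 14 (1.23) and Gm21679 on the Y chromosome (1.02) were also among the 5 largest in that direction, with LOC666331. Members of multicopy families share sequence, so the level of any 1 of them is uncertain. On the lower side Crisp1 (−3.04) and Ces5a (−1.45) rested on control replicate 3: without that library Crisp1 was at −0.95.

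Several tissue kallikrein genes were at a lower level in AOS, by more than 1 log2 unit, while the list as a whole had a median of −0.05, which ran from −0.21 without control replicate 3 to 0.03 without control replicate 1. Of 12 tested, 4 lay below control in all libraries (33.3%, beside 14.7% of all genes) and 3 above (25%, beside 7.65%). Without control replicate 3, 6 lay below (50%, beside 20.7%) and 3 above (25%, beside 12.5%). Kallikreins are secreted serine proteases encoded by a dense cluster of related genes on chromosome 7, and Klk1b21, Klk1b24 and Klk1b27 are known from mouse Leydig cells. Of 14 listed genes 12 were tested, and 0 passed. At an unadjusted p under 0.05, 5 were lower in AOS and 1 was higher, beside 5.08% and 3.9% of all genes. The RefSeq promoters (GRCm38.p6) of the 3 kallikrein genes with the largest differences are printed with that of Klk1b8, the most abundant one, which did not share their direction. Each covers 250 bases before and 50 after the annotated start, and capitals mark TTTAAA, which resembles the core promoter element bound by the TATA-binding protein.
Klk1b21 promoter, chr7:44102042-44102341, + strand: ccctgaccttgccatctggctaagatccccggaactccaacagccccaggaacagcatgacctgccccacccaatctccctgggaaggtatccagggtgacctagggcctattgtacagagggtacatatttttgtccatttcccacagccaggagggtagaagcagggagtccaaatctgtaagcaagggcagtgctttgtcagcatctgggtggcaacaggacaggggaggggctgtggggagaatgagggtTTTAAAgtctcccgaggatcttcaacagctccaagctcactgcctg
Klk1b27 promoter, chr7:44052040-44052339, + strand: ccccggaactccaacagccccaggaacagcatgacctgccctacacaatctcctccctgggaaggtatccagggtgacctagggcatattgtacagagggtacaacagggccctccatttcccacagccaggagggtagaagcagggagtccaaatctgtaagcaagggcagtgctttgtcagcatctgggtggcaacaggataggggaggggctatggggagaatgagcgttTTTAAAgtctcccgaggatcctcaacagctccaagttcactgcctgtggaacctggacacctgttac
Klk1b24 promoter, chr7:44187986-44188285, + strand: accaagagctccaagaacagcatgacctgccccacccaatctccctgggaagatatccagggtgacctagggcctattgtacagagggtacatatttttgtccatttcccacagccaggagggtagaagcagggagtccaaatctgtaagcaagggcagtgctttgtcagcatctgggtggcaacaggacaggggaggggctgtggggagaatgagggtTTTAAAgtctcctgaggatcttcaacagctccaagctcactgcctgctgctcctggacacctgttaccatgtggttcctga
Klk1b8 promoter, chr7:43950416-43950715, + strand: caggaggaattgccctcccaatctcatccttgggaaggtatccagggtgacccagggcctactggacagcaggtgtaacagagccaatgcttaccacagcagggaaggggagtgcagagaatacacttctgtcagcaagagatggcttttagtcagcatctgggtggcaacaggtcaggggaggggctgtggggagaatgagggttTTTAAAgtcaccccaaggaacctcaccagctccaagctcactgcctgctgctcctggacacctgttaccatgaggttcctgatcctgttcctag

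The promoters of Klk1b21 and Klk1b24 were identical in 97.7% of aligned columns and those of Klk1b21 and Klk1b27 in 92.8%. Klk1b8 was less like them, with 79.1% to 80.5% identity. TTTAAA, which reads the same on both strands, stood in 11 of 12 kallikrein promoters with an entry and in 13.2% of all 32851 mouse promoters of the same length. In Klk1b21 it lay after the RefSeq start, in the other 3 before it. By GENCODE M21 the Klk1b21 gene starts at 44102328, after the run, so its place relative to that start depends on the annotation. CAAGGTCA, a half-site of the steroidogenic factor NR5A1 searched on both strands, stood in 2 of the 12 and in 1.56% of all. A match to these letters describes the sequence and shows no binding.

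Klk1b21 (chromosome 7, 44102328 to 44106583) was at 4.92, 9.28 and 6.21 FPKM in AOS libraries and at 26.5, 21.6 and 15.95 FPKM in control libraries. Klk1b24 (44188236 to 44192455) was at 6.03, 9.2 and 7.27 FPKM in AOS libraries and at 29.6, 23.4 and 13.7 FPKM in control libraries. Klk1b27 (44052290 to 44056712) was at 3.91, 6.59 and 4.64 FPKM in AOS libraries and at 22.4, 16.8 and 10.7 FPKM in control libraries. In all 3 genes every AOS library lay below every control library, with mean levels of 6.8 ± 2.24, 7.5 ± 1.6 and 5.05 ± 1.39 FPKM in AOS and 21.3 ± 5.28, 22.3 ± 8.02 and 16.6 ± 5.85 FPKM in control (SD, n = 3 each). Their log2 differences were −1.53 (SE 0.56), −1.4 (SE 0.48) and −1.51 (SE 0.46), and limma unadjusted p-values were 0.016, 0.01 and 0.0046. Leaving out each library in turn gave −1.75 to −1.35, −1.7 to −1.17 and −1.78 to −1.27.

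The other kallikrein genes went both ways. Klk1b22 was at 0.18, 1.28 and 0.9 FPKM in AOS libraries and at 4.26, 3.43 and 0.92 FPKM in control libraries, a log2 difference of −1.04 with overlapping libraries. Klk1b16 was at 0.72, 0.72 and 1.07 FPKM in AOS libraries and at 2.46, 1.1 and 1.37 FPKM in control libraries (−0.5, or −0.29 without control replicate 1). By contrast Klk1b8 was at 90.04, 102 and 97.9 FPKM in AOS libraries and at 85.8, 81.7 and 75.1 FPKM in control libraries (0.25, SE 0.18). Klk1b5 (0.52, or 0.29 without control replicate 3) and Klk1b4 (0.29) also had all AOS libraries above all control libraries, while Klk1, Klk1b3, Klk1b9 and Klk1b26 overlapped. Of all windows of 50 bases in the transcripts of Klk1b21, Klk1b24 and Klk1b27, 29.1%, 33.9% and 14.3% were shared with another kallikrein gene, so part of each level depends on how reads were assigned.

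In 4 of the 14 kallikrein genes of the table the 3 control libraries were the highest of 18, and in the other 10 they were not. How many of all genes have that order was not counted, so the count has no background to set it against. The 4 are those already described with every AOS library below every control library, which fixes part of the order. In Klk1b21 the lowest control library, at 15.95 FPKM, lay above the highest of the 15 other libraries, at 9.86 FPKM. The same held for Klk1b24 (13.7 against 9.59 FPKM in the highest other library), Klk1b27 (10.7 against 7.97 FPKM) and Klk1b16 (1.1 against 1.07 FPKM). Mean levels of Klk1b27 were 5.05 FPKM in AOS, 0.49 FPKM in STZ with AOS, 1.91 and 2.58 FPKM in the AOS and control transplant groups, 3.98 FPKM in STZ and 16.6 FPKM in control. The log2 difference from control was −1.51 for AOS and −2.09 for STZ, 2 comparisons that share the control libraries. The effect of AOS in STZ mice minus that without STZ was 0.1 for Klk1b27 (limma adjusted p = 0.92) and −0.05 for Klk1b21 (limma adjusted p = 0.97).

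**Figure D2:**
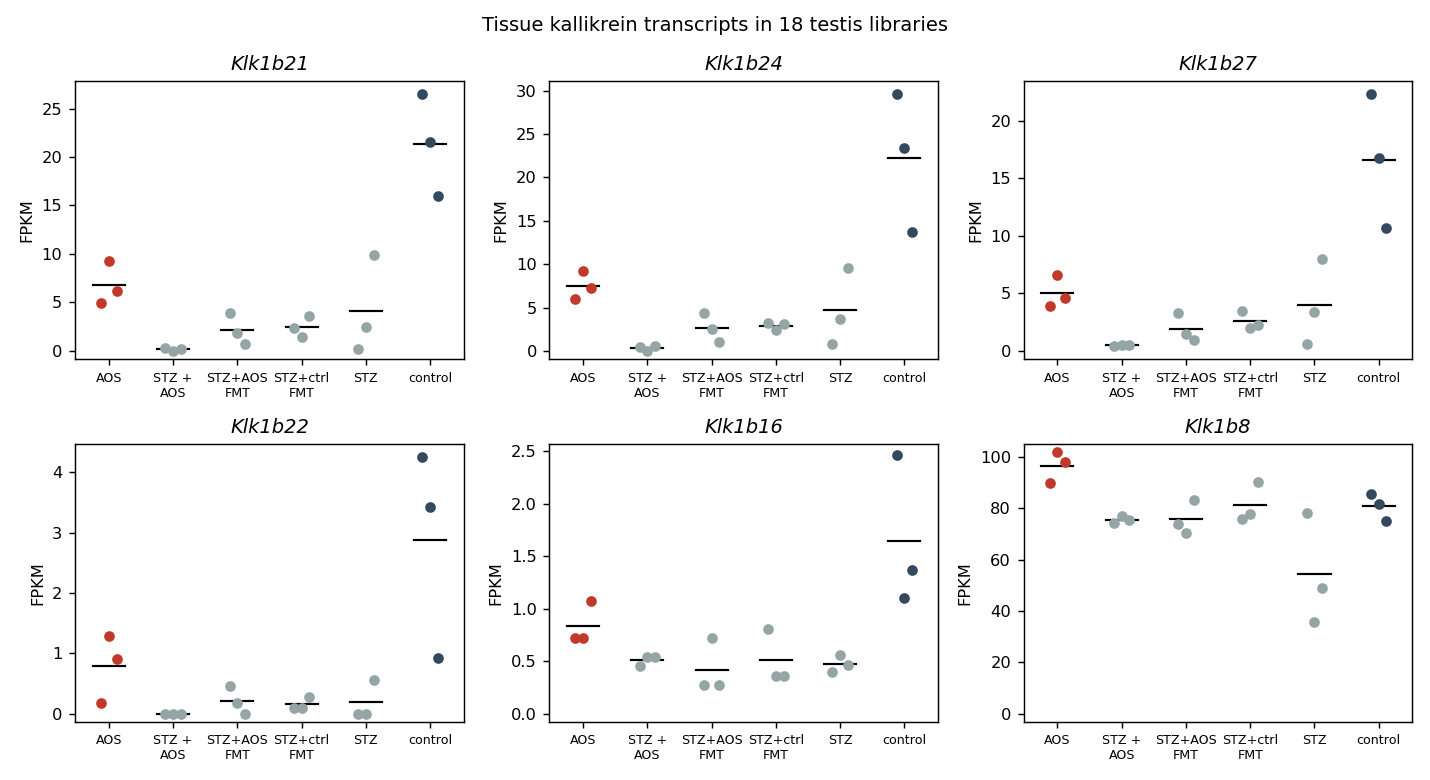
FPKM of 6 tissue kallikrein genes in the 18 testis libraries, by group: AOS (red), the 4 STZ groups (grey) and control (dark blue); points are libraries and bars group means. In Klk1b21, Klk1b24, Klk1b27 and Klk1b16 the 3 control libraries are the highest of 18, whereas Klk1b8 is at 90.04 to 102 in AOS and at 75.1 to 85.8 in control. In Klk1b16 the margin is 1.1 against 1.07, and the order was not counted over all genes.

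Leydig cell genes had mostly lower levels in AOS, without passing the test. Of 25 tested genes of Leydig cells and steroid synthesis, 6 had all AOS libraries below all control libraries (24%) and 1 above (4%), beside 14.7% and 7.65% of all genes. The list median was −0.11 beside −0.03 for all genes, and no member had an unadjusted p under 0.05. Without control replicate 3, 6 lay below (24%, near the 20.7% of all genes) and 1 above (4%, beside 12.5%). The median was then −0.09. In bulk tissue, fewer cells of a type and less RNA per cell cannot be told apart. Star, which brings cholesterol into mitochondria, was at 30.1, 32.95 and 36.5 FPKM in AOS libraries and at 37.6, 43.1 and 52.8 FPKM in control libraries (−0.4, SE 0.4). Cyp11a1, the side-chain cleavage enzyme that starts steroid synthesis, was at 76.5, 109 and 90.03 FPKM in AOS libraries and at 141, 115 and 142 FPKM in control libraries (−0.54, SE 0.56). Cyp17a1, needed for androgens, was at 237, 290 and 237 FPKM in AOS libraries and at 375, 307 and 362 FPKM in control libraries (−0.45, SE 0.52).

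The libraries of the groups separated in these 3 steroid genes, and the SE was taken from the spread over all 18 libraries. Por, which passes electrons to the cytochrome P450 enzymes (−0.21), the prolactin receptor gene Prlr (−0.34) and the sterol transporter gene Gramd1b (−0.07) also lay below control in every library. Insl3, a hormone of Leydig cells, was at 2347, 2930 and 2119 FPKM in AOS libraries and at 3345, 2929 and 3160 FPKM in control libraries, which overlap (−0.36). Hsd3b1, a dehydrogenase gene of the same pathway, overlapped as well, at 62.7, 87.6 and 48.1 FPKM in AOS and 81.6, 64.5 and 67.5 FPKM in control (−0.14). The luteinizing hormone receptor gene Lhcgr (−0.28) and the regulator gene Nr5a1 (−0.14) did not separate. AOS replicate 2 was the nearest to control in the list, with a list median of 0.02 relative to the control mean against −0.17 and −0.22 in the other AOS libraries.

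Cholesterol synthesis genes had lower levels in AOS over much of the pathway, short of the test. Of 23 tested genes, 11 had all AOS libraries below all control libraries (47.8%, beside 14.7% of all genes) and 1, Pmvk, above (4.35%). At an unadjusted p under 0.05 there were 4 lower and 0 higher, beside 5.08% and 3.9% of all genes, and 0 passed the adjusted test. The list median was −0.18 in each of the 3 AOS libraries relative to the control mean, and −0.02, −0.05 and 0.1 in the control libraries. Without control replicate 3 there were 13 of 23 below (56.5%, beside 20.7% of all genes) with 2 lower at an unadjusted p under 0.05 and a median of −0.14.

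Insig1, whose protein holds back the activation of sterol synthesis, was at 4.78, 5.68 and 4.93 FPKM in AOS libraries and at 7.65, 6.22 and 8.31 FPKM in control libraries. The groups did not overlap (log2 difference −0.45, SE 0.12, limma unadjusted p = 0.002). Among the enzymes, Hmgcs1, at the entry of the pathway, was at 24.9, 26.7 and 27.02 FPKM in AOS libraries and at 32.2, 32.1 and 36.1 FPKM in control libraries (−0.34). Mvd, of the mevalonate steps, was at 2.14, 2.09 and 2.03 FPKM in AOS libraries and at 3.09, 2.49 and 3.53 FPKM in control libraries (−0.38). Lss, which closes the sterol rings, was at 2.92, 3.05 and 2.97 FPKM in AOS libraries and at 3.91, 3.71 and 4.56 FPKM in control libraries (−0.34). AOS libraries were lower and closely grouped in each of these enzymes.

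Several later steps went the same way in level. Msmo1, a sterol demethylation enzyme, was at 14.1, 15.3 and 12.8 FPKM in AOS libraries and at 22.5, 20.6 and 24.7 FPKM in control libraries, the widest difference of the list (−0.64, SE 0.33). Sc5d was at 5.02, 7.05 and 6.52 FPKM in AOS libraries and at 8.64, 8.32 and 10.3 FPKM in control libraries (−0.49). Dhcr7, a reductase of the last steps (−0.42), Sqle (−0.1), Tm7sf2 (−0.24) and Nsdhl (−0.22) separated too. Other genes of the same route overlapped, among them the enzyme genes Idi1, Mvk, Fdps, Fdft1 and Cyp51. Relative to the control mean, Idi1 was at 0.108, 0.184 and 0.233 log2 units in the AOS libraries and Cyp51 at −0.021, −0.016 and −0.182. Srebf2, the transcription factor gene of the pathway, overlapped too (0.02).

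**Figure D3:**
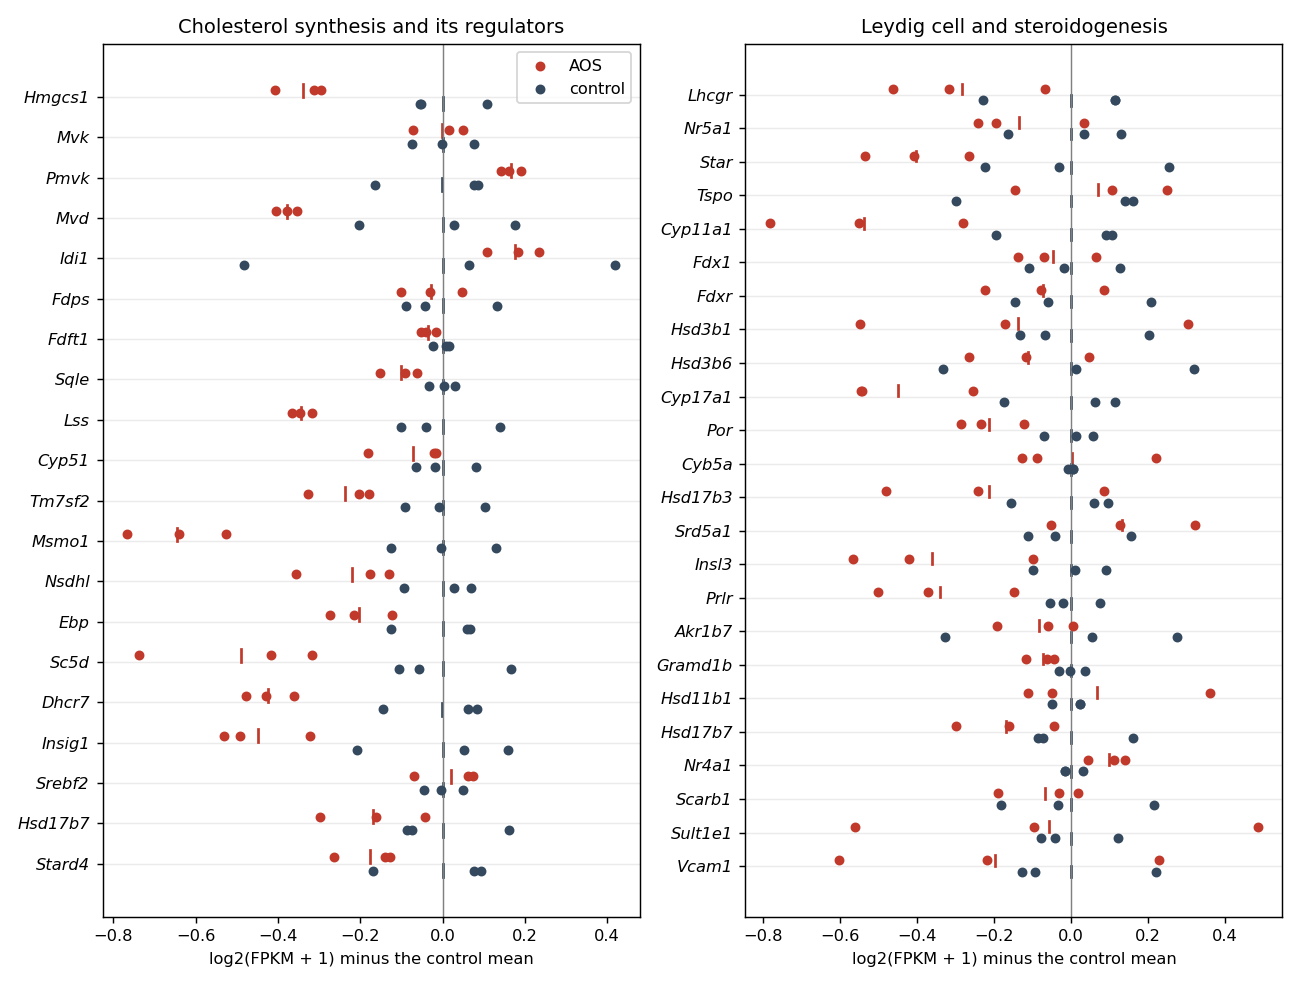
Levels of 20 of the 23 tested cholesterol synthesis genes (left) and 24 of the 25 tested Leydig cell genes (right), as log2(FPKM + 1) minus the control mean; points are libraries (AOS red, control dark blue) and ticks group means. In 10 of the cholesterol genes drawn and 6 Leydig genes the 3 AOS libraries lie below the 3 control libraries.

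Fatty acid genes had a similar, shallower pattern. Of 31 tested, 12 had all AOS libraries below control (38.7%, beside 14.7% of all genes) and 0 above, with a list median of −0.11. At an unadjusted p under 0.05, 2 were lower and 0 were higher, beside 5.08% and 3.9% of all genes. After the length correction 7 lay below and 1 above, beside 9.32% and 8.93% of all genes, with a median of −0.07. Fads2, a desaturase of polyunsaturated fatty acids, was at 71.2, 76.96 and 70.2 FPKM in AOS libraries and at 102, 83.4 and 109 FPKM in control libraries (−0.42). Fads1, its partner, was at 25.2, 27.9 and 25.8 FPKM in AOS libraries and at 35.2, 30.6 and 47.9 FPKM in control libraries (−0.49). The desaturase genes were thus lower in each AOS library, as were Scd1 (−0.55), Scd2 (−0.3) and the elongase genes Elovl2 (−0.12) and Elovl5 (−0.3). Srebf1, a transcription factor gene of fat synthesis, had a log2 difference of 0. Without control replicate 3 there were 16 of 31 below (51.6%, beside 20.7% of all genes).

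Genes that pack the DNA of late spermatids were at higher levels in AOS, short of the test. Prm1, Prm2, Prm3, Tnp1 and Tnp2 took 8.87%, 8.61% and 8.65% of the summed FPKM in AOS libraries and 7.85%, 7.17% and 7.01% in control libraries. The means were 8.71 ± 0.142% and 7.35 ± 0.444% (SD, n = 3 each), a difference of 1.36 percentage points, with an exact two-sided permutation p = 0.1, the smallest that 3 against 3 can give. Leaving out each library in turn gave 1.2 to 1.62 points. The share in STZ libraries was lower than in either group, at 6.57%, 3.55% and 4.73%.

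Each of the 5 genes was higher in every AOS library than in any control library. Prm3, on chromosome 16 (10790505 to 10790914) between Prm2 and Tnp2, was at 878, 674 and 770 FPKM in AOS libraries and at 652, 544 and 562 FPKM in control libraries (0.4, SE 0.14, limma unadjusted p = 0.011). Tnp2, a transition protein, was at 15710, 15850 and 15085 FPKM in AOS libraries and at 13289, 12218 and 11610 FPKM in control libraries (0.33, SE 0.16). Prm2 averaged 14140 ± 1090 FPKM in AOS and 11440 ± 1360 FPKM in control (SD, n = 3 each; 0.31), Tnp1 had a log2 difference of 0.27 and Prm1 of 0.24, which was −0.14 after quantile normalization. These are among the most abundant RNAs of the testis, and the 5 differences exceeded the spread of both groups without passing limma's test.

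Other genes of elongating spermatids differed less. Of 29 tested, 11 had all AOS libraries above control (37.9%, beside 7.65% of all genes) and 0 below (beside 14.7%). The list median was 0.06 (0.03 to 0.08 on leaving out libraries). In that list 1 gene was higher at an unadjusted p under 0.05, beside 3.9% of all genes. Smcp, of the sperm mitochondrial capsule, was at 4878, 4945 and 4959 FPKM in AOS libraries and at 4868, 4538 and 4673 FPKM in control libraries (0.07, or −0.04 after quantile normalization and −0.01 after the length correction). Odf1 (0.07), a protein of the outer dense fibres, and Gapdhs (0.17), a sperm glycolysis enzyme, lay above control as well, while Akap4, the main scaffold of the fibrous sheath, was at −0.08 with overlap. Round spermatid genes had 10 of 29 above (34.5%) and 2 below (6.9%) with a median of 0.01: Sun5 (0.18), which joins head and tail, Tssk3 (0.15), a kinase gene, and Ldhc (0.09), the testis lactate dehydrogenase gene, were above control and the acrosomal gene Acrv1 (−0.08) overlapped. Without control replicate 3, 13 of 29 elongating and 15 of 29 round spermatid genes lay above (44.8% and 51.7%, beside 12.5% of all genes).

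Meiotic genes tended to lie below control. Of 40 tested, 12 had all AOS libraries below (30%, beside 14.7% of all genes) and 1 above (2.5%, beside 7.65%), with a median of −0.09. At an unadjusted p under 0.05, 6 were lower and 1 was higher, beside 5.08% and 3.9% of all genes. Without control replicate 3, 16 lay below (40%, beside 20.7%). Sycp2, of the synaptonemal complex that pairs chromosomes, was at 73.1, 74.7 and 74.9 FPKM in AOS libraries and at 84.4, 89.9 and 84.99 FPKM in control libraries (−0.22, SE 0.07). Sycp1 (−0.27), Tex14 (−0.15), of the bridges between germ cells, and Tex15 (−0.19) separated too, but Sycp3 overlapped (−0.1). Syce3, a small protein of the same complex, was the exception, at 177, 145 and 139 FPKM in AOS libraries against 122, 116 and 126 FPKM in control libraries (0.33). Ccna1 (−0.09), and among 17 spermatogonial genes Zbtb16 (0.04), Stra8 (0.21) and Kit (−0.16), overlapped between the groups.

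A gradient with transcript length ran through the comparison. The length taken for each gene was that of its longest annotated transcript, which may not be the form expressed in testis. Among the length decile of genes with the shortest transcripts (165 to 1191 bases) the median log2 difference was 0.06, with 20.9% above and 3.38% below control in all libraries. Among the decile with the longest (6525 bases or more) it was −0.08, with 2.02% above and 32.5% below. The shortest minus the longest decile was 0.155, 0.176 and 0.126 log2 units in the AOS libraries and 0.046, −0.039 and −0.011 in the control libraries. In the 12 STZ libraries it ranged from −0.172 to 0.135. All AOS libraries thus had more short and less long transcript signal than any control library. Genes at an unadjusted p under 0.05 had a median length of 1694 bases for those higher in AOS, 4807 bases for those lower and 3114 bases for all tested genes.

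**Figure D4:**
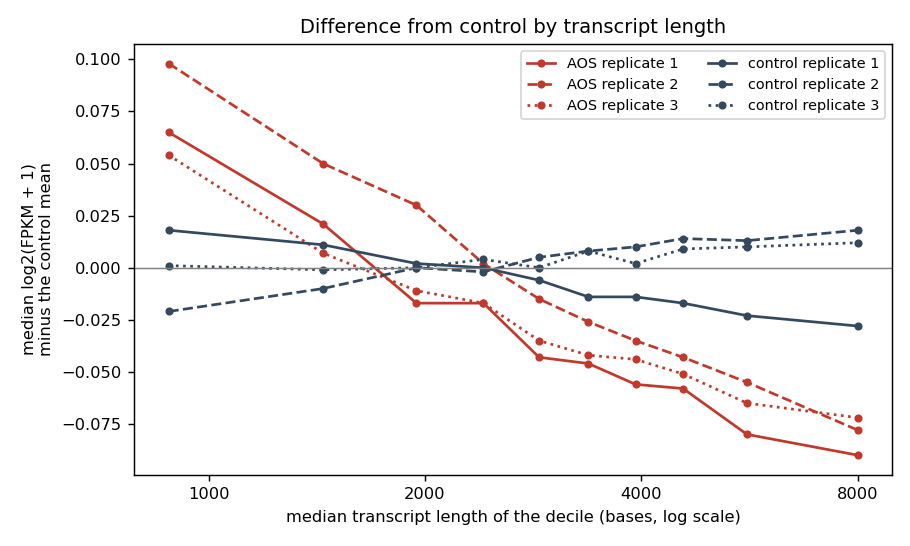
Median log2(FPKM + 1) minus the control mean for deciles of the tested genes by transcript length, 1 line per library. The 3 AOS lines (red) fall with length, by 0.126 to 0.176 from the first to the last decile, and the 3 control lines (dark blue) stay within 0.03 of 0.

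With the length trend of each library subtracted, a setting added after seeing the data, 8.93% of genes lay above control and 9.32% below, and 0 were called. Several lists came closer to the median of all genes. Sperm motility genes, large axonemal proteins among them, had 10 of 36 below (27.8%, beside 14.7% of all genes) and 3 above (8.33%, beside 7.65%) as deposited. Without control replicate 3 these were 16 and 4 (44.4% and 11.1%, beside 20.7% and 12.5%). After the correction there was 1 of each, and Hydin, at −0.09 as deposited, was at 0.01. Elongating spermatid genes had 4 above and 0 below (median 0.02), and the log2 differences of Prm1, Prm2, Prm3, Tnp1 and Tnp2 were 0.11, 0.21, 0.26, 0.14 and 0.22. Meiotic genes had 9 below and 1 above. Cholesterol synthesis genes had 12 below and 1 above with a median of −0.13, and Klk1b21, Klk1b24 and Klk1b27 were at −1.6, −1.48 and −1.58.

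Ribosomal and respiratory chain genes, which have short transcripts, lay on the other side of the gradient. Of 52 tested genes of cytosolic ribosomal proteins, 17 had all AOS libraries above control (32.7%, beside 7.65% of all genes) and 2 below (3.85%, beside 14.7%). At an unadjusted p under 0.05, 10 were higher and 0 lower, beside 3.9% and 5.08% of all genes. Rps29 was at 353, 183 and 320 FPKM in AOS libraries and at 178, 141 and 160 FPKM in control libraries (0.78, SE 0.22). Rpl13 was at 455, 444 and 445 FPKM in AOS libraries and at 398, 386 and 394 FPKM in control libraries (0.19, SE 0.05). After the length correction, where 8.93% of all genes lay above and 9.32% below, 7 lay above and 6 below, and Rpl13 was at 0.18. Of 40 nuclear genes of oxidative phosphorylation, 13 lay above (32.5%, beside 7.65% of all genes) and 1 below (2.5%, beside 14.7%), or 5 and 2 after the correction, with 8 higher at an unadjusted p under 0.05. Uqcrq, a subunit of complex III, was at 62.8, 51.5 and 53.2 FPKM in AOS libraries and at 35, 42.9 and 36.1 FPKM in control libraries (0.54, SE 0.13; 0.52 after the correction). The correction used the longest transcripts, of 1969 bases for Rpl13 and 1521 bases for Uqcrq. Shorter expressed forms were not allowed for, so these corrected values may keep part of the length trend.

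**Figure D5:**
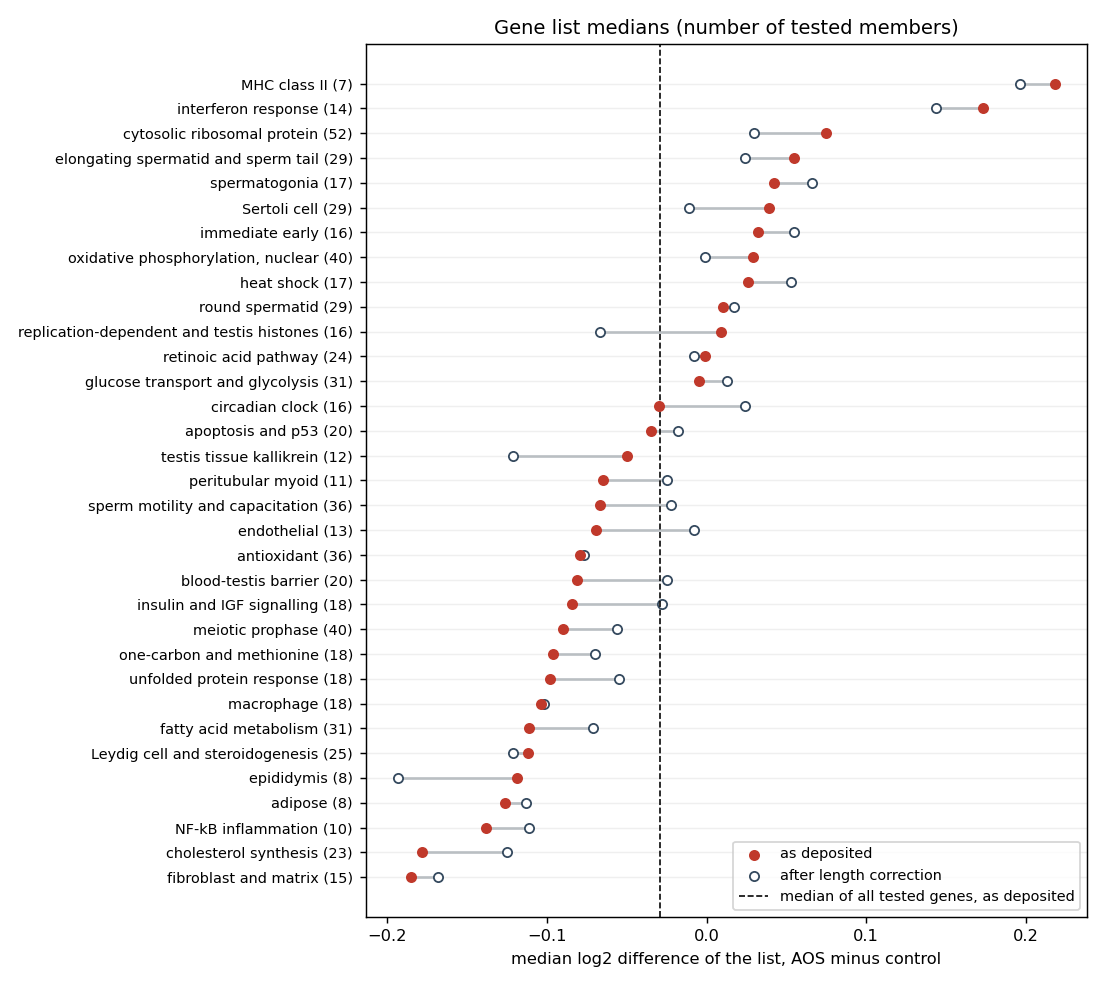
Median log2 difference, AOS minus control, of each gene list with at least 5 tested members (number in brackets), as deposited (red) and after the length correction (open). The dashed line is the median of all tested genes (−0.03); the lists run from −0.19 for fibroblast and matrix genes to 0.22 for MHC class II.

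Somatic cells of the tubule and the interstitium gave small differences. Of 29 Sertoli cell genes, 6 lay above control (20.7%, beside 7.65% of all genes) and 2 below (6.9%, beside 14.7%), with a median of 0.04. That median was −0.01 after the length correction and without control replicate 2. Without control replicate 3 it was −0.001, and 3 lay below (10.3%, beside 20.7% of all genes). Clu was at 474, 497 and 451 FPKM in AOS libraries and at 517, 460 and 474 FPKM in control libraries (−0.03), and Sox9 overlapped too (0.11). Cldn11, the main claudin of the barrier, was at 34.5, 36.8 and 34.8 FPKM in AOS libraries and at 33.99, 32.1 and 33.3 FPKM in control libraries (0.09). These Sertoli levels were close between the groups. Of 20 barrier genes 6 lay below (30%, beside 14.7% of all genes) and 2 above (10%, beside 7.65%). The vinculin gene Vcl was at −0.17 and the tight junction gene Tjp1 at −0.11. After the length correction 3 barrier genes lay below and 2 above, beside 9.32% and 8.93% of all genes. Of 15 fibroblast and matrix genes, 6 lay below (40%, beside 14.7% of all genes) and 0 above, or 4 and 0 after the length correction, with Dcn at −0.3 and Timp1 at −0.38, and the list's summed level was 173 to 212 FPKM in AOS and 214 to 219 FPKM in control. Acta2 of myoid cells (−0.05) and Pecam1 of blood vessels (−0.13) overlapped.

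Immune genes were uneven among the AOS libraries. All 7 tested MHC class II genes had a mean difference above 0, with a median of 0.22. Only H2-DMa lay above control in every library (14.3% of the list, beside 7.65% of all genes). Without control replicate 3, 4 of the 7 lay above (57.1%, beside 12.5%). Cd74, the invariant chain, was at 8.33, 20.4 and 8.69 FPKM in AOS libraries and at 9.65, 10.2 and 9.3 FPKM in control libraries. AOS replicate 2 was the high one, and without it the list median was 0.12. Of 14 interferon response genes 3 were higher at an unadjusted p under 0.05 and 0 were lower, beside 3.9% and 5.08% of all genes. The 3 were Isg15, a ubiquitin-like protein (0.79), Psmb8 (0.56) and Ifit3 (0.64). Isg15 was at 0.74, 0.96 and 2.52 FPKM in AOS libraries and at 0.22, 0.44 and 0.33 FPKM in control libraries. Isg15 and Ifit3 were highest in AOS replicate 3 and Psmb8 in AOS replicate 2, and without AOS replicate 3 the list median was −0.02 against 0.17 with it. The macrophage genes Adgre1 (−0.17) and Lyz2 (−0.08) overlapped.

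Lcn2, an iron-scavenging lipocalin, was at 227, 305 and 215 FPKM in AOS libraries and at 431, 476 and 387 FPKM in control libraries. All AOS libraries were below all control libraries (−0.8, SE 0.59), where the SE again stands for all 18 libraries. Of 36 antioxidant genes 7 lay below (19.4%) and 2 above (5.56%), shares near the 14.7% and 7.65% of all genes. Gpx4, the sperm selenoprotein peroxidase, was at 1357, 1420 and 1412 FPKM in AOS libraries and at 1275, 1200 and 1275 FPKM in control libraries (0.16). The quinone reductase gene Nqo1 overlapped at −0.44, and Gsta4 was at −0.25 with no overlap. Gpx3 was at −1.07, but its control level of 59.4 FPKM in replicate 3 stood beside 12.7 and 10.8 FPKM in the other control libraries.

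Markers of neighbouring tissue and blood were uneven too. Of 14 epididymis markers, 7 were above 0 in all AOS libraries and 7 in all control libraries. Their summed levels were 343 to 395 FPKM in AOS and 286 to 545 FPKM in control. Much of each sum was Cst8, at 343, 286 and 320 FPKM in AOS libraries and 274, 240 and 273 FPKM in control libraries. Unlike Crisp1 and Spink8, Cst8 was not raised in control replicate 3, and Crisp1 was at 0.05 to 0.1 FPKM in AOS libraries. The AOS sums are therefore no measure of epididymal RNA. Spink8 was at 1.1, 0.37 and 0.6 FPKM in AOS libraries and at 1.13, 0.63 and 42.6 FPKM in control libraries. Lcn5 and Lcn8 were at 0 in all 6. Hba-a1, a haemoglobin gene, was at 59.2, 89.8 and 53 FPKM in AOS libraries and at 101, 110 and 85.6 FPKM in control libraries (−0.58). The erythrocyte markers summed to 66.6 to 98.8 FPKM in AOS and 99.8 to 141 FPKM in control. Whether blood or epididymal RNA has a part in any gene above was not tested.

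The effect of AOS was compared with its effect in STZ mice by the interaction, the difference STZ with AOS minus STZ, less the difference AOS minus control. It was called in 4984 of 14164 genes at a limma adjusted p under 0.05 (35.2%), 867 higher and 4117 lower. STZ minus control was itself called in 7823 genes at the same threshold. The genes with the smallest interaction p had small differences for AOS without STZ. Cldn11 was at −1.39 for AOS in STZ mice and at 0.09 without STZ, an interaction of −1.48 (limma adjusted p = 3.6e-06). For STZ minus control it was at 1.69. Its level was 93.9, 124 and 110 FPKM in STZ libraries and 42.6, 39.9 and 40.5 FPKM in those of STZ with AOS. Ttyh2 (−1.48 with STZ and −0.1 without), Ildr2 (−1.62 and −0.07), St6galnac6 (−1.04 and 0.08) and Ormdl3 (−1.02 and 0.13) followed. In the other direction Lca5l (0.26 with STZ and −0.09 without), Ttll5 (0.23 and −0.14), Cdkl3 (0.33 and −0.13), Slc6a21 (0.26 and −0.12) and Slc6a16 (0.36 and −0.08) had the smallest p. For STZ minus control these genes were at −0.25, −0.32, −0.36, −0.29 and −0.32. Ttyh2, Ildr2, St6galnac6 and Ormdl3 were at 1.64, 1.75, 1.25 and 1.13. Some leading genes of the AOS comparison were not called: the interaction was −0.11 for Hoxa3 (limma adjusted p = 0.6), −0.37 for Ghrl (limma adjusted p = 0.1) and 0.01 for Insig1 (limma adjusted p = 0.96).

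The cholesterol synthesis list had a median of −0.18 for AOS minus control and −0.44 for STZ with AOS minus STZ, and none of its members named here was called in the interaction. The elongating spermatid list had medians of 0.06 and 0.51. The Leydig list had medians of −0.11 and −1.04. These pairs of comparisons share no library. For STZ minus control the medians were 0.07 for cholesterol synthesis, −0.53 for elongating spermatids and 0.36 for Leydig cells.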

How the data were processed

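Testis RNA of 18 mouse libraries was sequenced by the authors (Illumina, per the labels' protocols). The submitters' processing notes name Bowtie 0.12.2 and the build mm10; no source used here gives the counter, the annotation or the scaling. The authors' deposited values were taken as FPKM, that is, scaled by the authors to transcript length and library depth. The file header names no unit; FPKM was inferred because 71.5% of 4316 low values were within 0.15 of a whole multiple of a per-gene step that shrinks with transcript length, and RPKM cannot be told apart from it. Read numbers are unknown, so no counting interval is given, and 3 libraries a group limit the precision.

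Limma 3.58.1 in R 4.3.3 (trend) was fitted to log2(FPKM + 1), a scale that understates differences of low genes, for 14164 genes at 1 FPKM or more in at least 3 libraries. All 18 libraries, grouped by treatment label, entered 1 model of 6 group means; tests were two-sided with Benjamini-Hochberg adjustment. The fit was first tested on simulated data. Replicate numbers were not used as pairs: deviations of same-numbered libraries correlated at −0.03, −0.05 and −0.03. Transcript lengths (the longest transcript of each gene) and positions came from GENCODE M21 (20249 of 20985 genes matched) and promoters from RefSeq. Genes were named by rule: the 10 smallest p-values and 5 largest differences in each direction among genes whose groups do not overlap at a mean of 1 FPKM or more, the 4 lowest p-values at most from each of 36 gene lists, 30 marker genes and the 5 smallest interaction p-values in each direction; other list members that are named were chosen after their values were seen. The comparison and the lists were chosen with earlier results of these data known. Alternatives covered scaling, filter, pseudocount, libraries left out, library weights and a length correction. Symbols altered by a spreadsheet or on 2 rows (39) were not named. Some members of the cholesterol and Leydig lists are not reported here by name.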

Additional observations from a re-analysis of the deposited data

Results flagged for a closer look

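The difference that AOS made in STZ mice, less the one it made without STZ, passed limma's test in 4984 genes. The genes named in the text that were among them are given here. That difference of differences is given in brackets, in log2 units, and each value is for 3 libraries in each of 4 groups. It was tested by the interaction itself at an adjusted p under 0.05, and its cause was not tested.

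Immune genes were Cd74 (−2.73), Lyz2 (−2.13), Isg15 (−1.77), Psmb8 (−1.67) and Ifit3 (−1.45). Cd74 had a log2 difference of −2.51 for AOS in STZ mice and of 0.22 without STZ, and Isg15 −0.98 and 0.79. For STZ minus control they were at 2.82 and 1.27. Sertoli cell and barrier genes were Cldn11 (−1.48), Clu (−1.32), Sox9 (−1.26) and Vcl (−0.7), Leydig cell and steroid genes Hsd3b1 (−1.59), Nr5a1 (−1.12) and Por (−0.59), and genes of matrix, myoid cells and vessels Acta2 (−0.78), Pecam1 (−0.67), Dcn (−1.39) and Timp1 (−2.02). Genes of early germ cells were Stra8 (−1.12), Kit (−0.74) and Zbtb16 (−0.48), and of detoxification and fat synthesis Gsta4 (−1.07), Scd2 (−0.96) and Srebf1 (−0.86). In each of these genes the difference for AOS was lower with STZ than without it, as it was for Igf1r (−0.74), Il3ra (−0.68), Ildr2 (−1.56), Ttyh2 (−1.38), St6galnac6 (−1.11) and Ormdl3 (−1.15).

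Genes of meiosis, sperm motility and spermatids were on the other side: Smcp (0.59), Odf1 (0.47), Akap4 (0.52), Ccna1 (0.61), Sycp2 (0.37) and Hydin (0.3). Genes of no list on that side were Lca5l (0.35), Ttll5 (0.36), Cdkl3 (0.47), Slc6a21 (0.38) and Slc6a16 (0.45). Smcp had a log2 difference of 0.66 for AOS in STZ mice and of 0.07 without STZ, and of −0.7 for STZ minus control.

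Of the genes with a small unadjusted p between AOS and control, LOC666331 (−1.02), Snrpd2 (−0.42), Npm3 (−0.23), Tubb2a (−0.49), Uqcrq (−0.94), Rps29 (−0.98) and Rpl13 (−0.37) had higher mean levels in AOS without STZ and smaller or opposite differences with it: LOC666331 was at −0.01 and 1.01, and Uqcrq at −0.4 and 0.54. Epc2 (0.26) and Tax1bp1 (0.32), lower in AOS without STZ, were at 0 and 0.12 in STZ mice, whereas G3bp2 (−0.33) and Uap1l1 (−0.42) had wider negative differences there. All these genes were chosen by their AOS minus control difference, which the interaction subtracts. An interaction of the opposite sign is therefore favoured by the choice itself.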

How the results depend on the processing

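With 0 genes called as the main result, other choices gave 0 with only the 6 AOS and control libraries, without the STZ group, and under quantile normalization, median centring, the pseudocount of 0.1, the filter at 5 FPKM, the robust prior, the length correction and the replicate block (smallest adjusted p 0.42). No filter on low values called 2 genes, Gm4705 and LOC108168646, both at 0.32 FPKM or less in all 6 libraries. Leaving out a library gave 0 to 1; without control replicate 1 Il3ra was called (0.76). Library weights called 22, among them Hoxa3 (0.51), Ghrl (0.63) and Snrpd2 (0.39), each past the threshold only there. Genes higher at an unadjusted p under 0.05 numbered 917 with only the 6 libraries and 1018 with weights, beside 553, and 378 to 540 with a library left out. Genes lower numbered 1299 with only the 6 libraries, 1293 without the STZ group, 1769 with weights, 332 after median centring and 358 after the length correction, beside 720; leaving out a library gave 410 (without AOS replicate 1) to 721, with 431 without control replicate 2. The replicate block gave 711. The cause of these moves was not tested. The share of genes with a difference above 0 was 40% as deposited, 46.7% after quantile normalization, 53.2% after median centring and 48.1% after the length correction. The interaction count, the count of narrow intervals and the protamine share stayed within 1.5 times or their spread under the alternatives run; of the gene list medians, 83 moved by more than the spread between libraries and 527 did not. Of the 3773 values of named genes under alternatives, 18 had the opposite sign, in 11 genes, none called. Quantile normalization gave −0.14 for Prm1 and −0.04 for Smcp, the length correction −0.01 for Smcp, 0.01 for Hydin and 0.01 for Ildr2, and median centring 0.01 for Clu. With a library left out, Clu ran from −0.06 to 0.02, Acta2 from −0.1 to 0.01, Lyz2 from −0.27 to 0.03, Cd3d from −0.25 to 0.1, Fabp4 from −0.83 to 0.18, Hsd3b1 from −0.36 to 0.07 (without AOS replicate 3) and Cd74 from −0.17 (without AOS replicate 2) to 0.43. Depth in reads is not known, and levels under 1 FPKM rest on few reads.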

Other observations

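No gene of the other lists passed limma's adjusted test between AOS and control testis, and the shares of non-overlapping genes varied between lists. Of 31 genes of glucose transport and glycolysis, 6 had all AOS libraries above all control libraries (19.4%, beside 7.65% of all genes). In that list 1 lay below (3.23%, beside 14.7%), and the median log2 difference was −0.005 beside −0.03 for all genes. Aldoa, a glycolytic aldolase gene, was at 323, 322 and 321 FPKM in AOS libraries and at 313, 299 and 302 FPKM in control libraries (0.08). Of 17 heat shock genes, 2 lay above (11.8%, beside 7.65% of all genes) and 2 below (11.8%, beside 14.7%). The chaperone gene Hsp90aa1 was at 659, 720 and 699.9 FPKM in AOS libraries and at 732, 797 and 734 FPKM in control libraries (−0.12).

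Of 24 retinoic acid genes, 1 lay above (4.17%, beside 7.65% of all genes) and 2 below (8.33%, beside 14.7%). Aldh1a2, which makes retinoic acid, was at 48.4, 47.4 and 47.4 FPKM in AOS libraries and at 52.98, 52.2 and 53.4 FPKM in control libraries (−0.14). Of 18 one-carbon genes, 4 lay below (22.2%, beside 14.7% of all genes) and 0 above. Without control replicate 3 there were 8 below (44.4%, beside 20.7%) and 1 above (5.56%, beside 12.5%). Cbs, the first enzyme that turns homocysteine towards cysteine, was at 0.39, 0.45 and 0.41 FPKM in AOS libraries and at 0.73, 0.8 and 1.13 FPKM in control libraries (−0.41, limma unadjusted p = 0.013). Of 18 genes of insulin and IGF signalling, 3 lay below (16.7%, near the 14.7% of all genes) and 0 above. The receptor gene Igf1r was among those below (−0.24). It was at 1.01, 0.99 and 1.05 FPKM in AOS libraries and at 1.41, 1.34 and 1.38 FPKM in control libraries. None of these genes passed limma's adjusted test, where the smallest adjusted p of any gene was 0.41, and the 5 were chosen after their values were seen.

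Of the remaining lists, the medians were −0.04 for apoptosis and p53 (20 genes), −0.1 for the unfolded protein response (18 genes), 0.03 for immediate early genes (16 genes), −0.03 for the circadian clock (16 genes), 0.01 for histones (16 genes), −0.14 for NF-kB inflammation (10 genes), −0.1 for macrophages (18 genes), −0.07 for endothelial cells (13 genes), −0.07 for myoid cells (11 genes) and −0.13 for adipose tissue (8 genes). Leaving out a library moved the median to −0.26 to 0.04 for adipose tissue (lowest without AOS replicate 1, highest without control replicate 1), to −0.14 to −0.01 for macrophages (without AOS replicates 2 and 1), to −0.12 to −0.05 for endothelial cells (without control replicates 1 and 3), to −0.02 to 0.03 for histones (without AOS replicates 2 and 1), to −0.07 to 0 for apoptosis and p53 (without AOS replicates 1 and 3) and to 0.02 to 0.06 for immediate early genes (without AOS replicates 2 and 3). The lymphocyte and nuclear RNA lists had 1 tested gene each.

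The epididymal genes found in control replicate 3 were also high in STZ libraries with control transplants. Crisp1 was at 0.99, 256 and 33.6 FPKM in replicates 1, 2 and 3 of that group, and Cd52 at 2.29, 221 and 31.7 FPKM. Adam7 had another order, at 1.1, 10.7 and 39.6 FPKM.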
